A study of Mus musculus with 12 samples.

Results

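The kinesin motor genes were followed in 12 mouse oral tumours, 1 array per tumour. Members were all genes whose symbol is Kif followed by a number and at most 1 letter, measured by probesets that the platform annotation gives to a single symbol. This gave 37 of the 23102 genes measured. They were divided by the work of their proteins into 11 mitotic kinesins, which act on the spindle, the chromosomes or the dividing midzone, and 26 other kinesins, most of which carry vesicles, organelles or ciliary cargo. Kif2a, Kif2b and Kif24, which belong to a family that takes microtubule ends apart, stand among the 26 because the division lists only the 11.

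The KHR group held 6 tumours whose labels give RAS and iHPV; a second label of the same samples names HPV E6, an oncoprotein of human papillomavirus. The KR group held 6 tumours labelled as expressing RAS, with no iHPV in the label. All 12 tumours arose in C57BL/6 × FVB F1 mice given tamoxifen by intraperitoneal injection, so the drug was common to both groups. The labels give neither the promoters of the transgenes nor the cells in which they act, nor the age and sex of the mice. Whether each tumour had its own mouse is not stated, so the p-values measure only the spread between these tumours, which may be technical.

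Kinesins are motors that use ATP to move along microtubules or, in some families, to take their ends apart. In mitosis they push the spindle poles apart, align the chromosomes and build the midzone at which the cell divides, and the genes of the mitotic kinesins are transcribed mainly in G2 and M phase. Outside mitosis, kinesins carry membrane cargo in every cell, and some serve axons or cilia. In stratified oral epithelium the dividing cells lie in and near the basal layer.

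Each tumour gave 1 log2 intensity per gene, the median of its probesets, which for the kinesins number between 4 and 40. Values of different genes come from different probes, so intensities do not rank transcripts by abundance. The median intensity of all genes (4.98) serves below only as a filter on dim probes, and the number of arrays limits the precision. Keratinocyte markers were high in both groups: the mean of Krt5, Krt14, Krt6a, Krt17 and Trp63 was 12.54 ± 0.09 in KHR tumours and 12.50 ± 0.06 in KR tumours (SD, n = 6 each), and none of these 5 passed the test. The tumours were not of 1 cell type, and in bulk tissue a change in the share of dividing cells and a change in RNA per cell cannot be told apart. Xist, made only from an inactive X, was high in 4 of 6 KHR and 2 of 6 KR tumours. If it marks the sex of the mice, which the labels do not give, females and males were not evenly divided.

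Most mitotic kinesins rose in the KHR tumours, while 1 of the other kinesins passed the test, and it fell. Of the 11 mitotic kinesins, 9 rose, none fell and 2 did not pass the test, where 2.71% of all genes rose, 1.03% fell and 3.74% were called in either direction (limma, Benjamini-Hochberg adjusted p under 0.05 over all genes). Of the 26 other kinesins, none rose, 1 fell and 25 did not pass. The median difference, KHR minus KR on the log2 scale, was 0.71 for the mitotic kinesins and -0.07 for the others, beside 0.00450 for all genes. All 11 mitotic kinesins had a positive difference, as did 11 of the 26 others and 51% of all genes. The forest plot of differences shows the mitotic kinesins on 1 side of nearly every other kinesin, Kif23 being the exception: Kif21a, Kif5c, Kif3c, Kif21b and Kif1a had larger differences, none of them past the test.

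**Figure D1:**
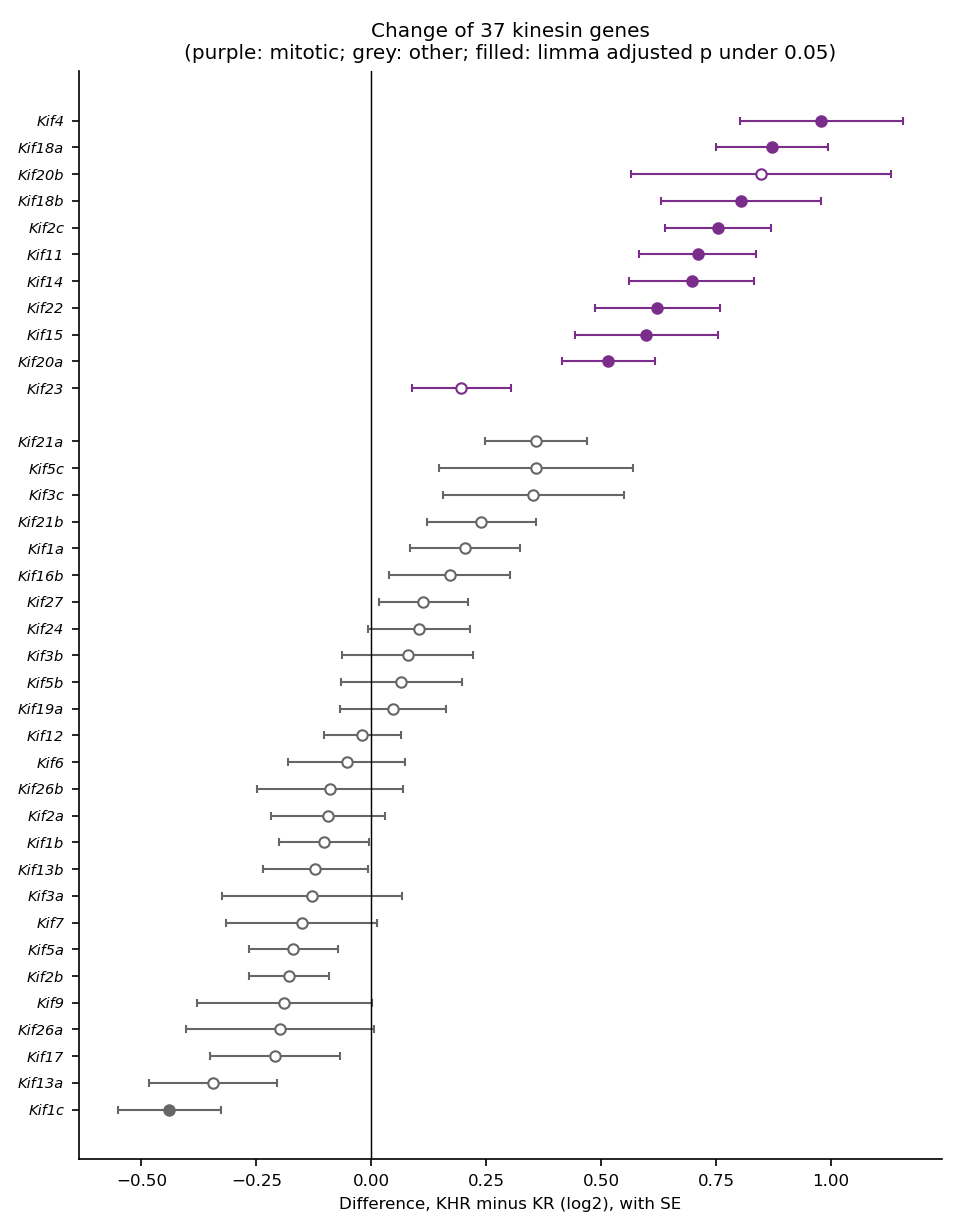
Difference between the groups, KHR minus KR on the log2 scale with its SE, for 37 kinesin genes. Mitotic kinesins (purple) run from 0.20 for Kif23 to 0.98 for Kif4, other kinesins (grey) from -0.44 for Kif1c to 0.36 for Kif21a, and filled points passed the test.

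The genes also differed in what stands at their start sites, which the division did not use. Promoters of mitotic genes are known for the cell cycle homology region (CHR), an element bound by the DREAM and B-MYB complexes, often with CCAAT boxes, which NF-Y binds, upstream of it; E2F factors bind a separate element. RefSeq promoters on GRCm38.p6, from 250 bases before the start to 50 after it, were matched by symbol for 10 mitotic and 21 other kinesins, and Kif20a is not analysed here. They were searched on both strands for TTTGAA and TTCGAA (CHR), CCAAT, and the E2F octamers TTTCCCGC, TTTGGCGC, TTTCGCGC and TTTGCCGC. A CHR word stood in 9 of 10 mitotic kinesin promoters (90%), in 4 of 21 other kinesin promoters (19%) and in 21.7% of the promoters of 27025 genes. CCAAT stood in 6 of 10 and 8 of 21 against 41.1% of all, and an E2F octamer in 2 of 10 and 0 of 21 against 2.6% of all. All 6 mitotic promoters with CCAAT also held a CHR word, which 9 of the 10 held in any case. Both words stood together in 6 of 10 mitotic and 3 of 21 other promoters, against 8.61% of all. At least 2 CCAAT boxes stood in 3 of 10 and 2 of 21, against 13.3% of all.

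Most of these mitotic kinesins had a CHR word close to the start. In 7 of the 10 the first base of a CHR word was within 20 bases of the start site, against 1 of 21 other kinesins and 2.75% of all genes, a distance chosen after the positions were seen. The bases from 60 before the start to 30 from it are shown for those 7, for Kif18a, which holds an E2F octamer and no CHR word, and for Kif1c, the kinesin that fell, with all matched words in capitals:
Kif11, chr19:37376322-37376411, plus strand: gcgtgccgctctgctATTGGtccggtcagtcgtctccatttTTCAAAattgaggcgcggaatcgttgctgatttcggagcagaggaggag
Kif4, chrX:100626005-100626094, plus strand: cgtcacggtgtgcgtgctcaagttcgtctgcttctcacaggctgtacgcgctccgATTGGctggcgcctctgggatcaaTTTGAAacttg
Kif18b, chr11:102925095-102925184, minus strand: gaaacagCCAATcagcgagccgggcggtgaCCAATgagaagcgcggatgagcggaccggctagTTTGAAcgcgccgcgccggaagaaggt
Kif22, chr7:127042391-127042480, minus strand: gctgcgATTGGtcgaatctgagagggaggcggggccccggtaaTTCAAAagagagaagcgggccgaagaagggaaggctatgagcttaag
Kif23, chr9:61946770-61946859, minus strand: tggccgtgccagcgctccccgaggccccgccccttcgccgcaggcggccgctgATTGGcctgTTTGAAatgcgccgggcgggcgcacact
Kif20b, chr19:34922298-34922387, plus strand: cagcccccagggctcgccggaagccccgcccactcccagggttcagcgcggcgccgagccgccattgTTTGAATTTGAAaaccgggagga
Kif15, chr9:122951021-122951110, plus strand: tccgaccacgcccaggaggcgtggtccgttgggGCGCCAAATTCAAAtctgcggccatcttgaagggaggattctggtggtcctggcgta
Kif18a, chr2:109280678-109280767, plus strand: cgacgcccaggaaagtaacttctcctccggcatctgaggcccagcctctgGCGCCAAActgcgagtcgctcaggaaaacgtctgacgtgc
Kif1c, chr11:70700488-70700577, plus strand: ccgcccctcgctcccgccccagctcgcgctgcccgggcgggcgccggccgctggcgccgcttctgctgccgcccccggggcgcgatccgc
In Kif11, Kif4, Kif18b, Kif22 and Kif23 a CCAAT box on either strand preceded the CHR word. How often this order occurs among all promoters was not counted. Within the bases shown Kif18b carried a pair of them, and Kif4 and Kif22 had a further CCAAT box outside these bases, at -152 and -233. In Kif20b 2 CHR words followed each other without a gap, and in Kif15 an E2F octamer ran straight into the CHR word without overlapping it. Kif2c and Kif14 had their CHR words farther out, at -103 and -228, and the Kif1c window held none of these words. A match of letters is a description of the sequence and shows no binding.

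The kinesins that build the bipolar spindle rose. Kif11, of kinesin family 5, cross-links antiparallel microtubules and slides the poles apart. Its lowest, median and highest values were 9.19, 9.50 and 9.63 in KHR tumours, against 8.49, 8.70 and 9.25 in KR tumours. All KHR arrays but KHR 1 lay above every KR array, and KHR 1 lay just below KR 4. The difference was 0.71 ± 0.13 (SE), a fold of 1.64 (limma, adjusted p = 0.00675). Kif15, of family 12, holds the poles apart together with Kif11. It stood at 7.52, 8.26 and 8.46 in KHR tumours, against 7.27, 7.70 and 7.74 in KR tumours (lowest, median and highest), with KHR 1 alone inside the KR range. Its difference of 0.60 ± 0.16 passed narrowly (adjusted p = 0.0492). Leaving out any array other than KHR 1 ended the call (adjusted p 0.0613 to 0.108), as did the mean over probesets (0.0588), quantile normalization (0.0635) and subtracting array medians (0.0554). With the Xist and muscle covariates below, which also ended it, the call held under 7 of 23 settings.

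The kinesins of chromosome arms and chromosome alignment rose as well. Kif4, a chromokinesin of family 4 that helps to compact chromosomes and sets the length of the midzone, had the largest difference of the 37 kinesins. Its lowest, median and highest values were 7.71, 8.10 and 8.54 in KHR tumours, against 6.82, 6.97 and 7.61 in KR tumours, and the groups did not overlap. The difference was 0.98 ± 0.18, a fold of 1.97 (adjusted p = 0.00699). Kif4 is X-linked, and its difference was 1.01 among the arrays with high Xist and 0.72 among those with low Xist. Kif18a, of family 8, damps the swings of chromosomes at the metaphase plate. Its values were 7.56, 7.68 and 7.83 in KHR tumours, against 6.35, 6.87 and 7.11 in KR tumours. Every KHR array lay above every KR array and the KHR values were tightly grouped. At 0.87 ± 0.12 it had the lowest adjusted p of the 37, 0.00136. Kif22, the chromokinesin of family 10 that pushes chromosome arms away from the poles, stood at 6.21, 6.54 and 6.97 in KHR tumours, against 5.69, 5.89 and 6.29 in KR tumours. The groups overlapped through KHR 5 and KR 4, and the difference of 0.62 ± 0.14 passed (adjusted p = 0.0218). The call was lost without KHR 3, KR 2 or KR 6 (adjusted p = 0.0528, 0.0567 and 0.0524), and under 2 other settings given below. Kif4 and Kif22 have pseudogenes in RefSeq, and how far their probes also bind those copies was not tested.

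The mitotic kinesins that shorten microtubules moved the same way. Kif2c, of family 13, takes microtubule ends apart at centromeres and so frees wrongly attached chromosomes. It ran from 7.64 over a median of 7.81 to 8.02 in KHR tumours, against 6.74, 7.03 and 7.38 in KR tumours. The groups did not overlap, and the difference was 0.75 ± 0.12 (adjusted p = 0.00237). Kif18b, of family 8, works with Kif2c on astral microtubules. Its values were 6.97, 7.85 and 8.19 in KHR tumours, against 6.79, 6.98 and 7.17 in KR tumours, with KHR 5 alone inside the KR range. The difference of 0.80 ± 0.17 passed (adjusted p = 0.0203; 0.0523 without KR 2).

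Of the kinesins of the midzone and of cytokinesis, Kif20a and Kif14 rose, while Kif20b and Kif23 did not pass the test. Kif20a, of family 6, carries the chromosomal passenger complex to the midzone. It stood at 8.28, 8.37 and 8.65 in KHR tumours, against 7.67, 7.91 and 8.11 in KR tumours, without overlap, a difference of 0.52 ± 0.10 (adjusted p = 0.0118). Kif14, of family 3, brings citron kinase to the midbody. Its values were 7.18, 7.67 and 7.80 in KHR tumours, against 6.63, 6.78 and 7.28 in KR tumours, and KHR 1 lay below KR 5. The difference was 0.70 ± 0.14 (adjusted p = 0.0120).

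Kif20b, a further motor of late cytokinesis, had the widest spread of the 11 in KHR tumours. It stood at 6.05, 7.60 and 8.12 in KHR tumours, against 6.14, 6.50 and 6.99 in KR tumours. KHR 1 was the lowest of all 12 arrays, while the other 5 KHR arrays lay above every KR array. The difference was 0.85 ± 0.28 (adjusted p = 0.131); without KHR 1 it was 1.11 and passed (adjusted p = 0.00449). Kif23, the motor of centralspindlin, had the smallest difference of the mitotic kinesins. Its values were 8.52, 8.84 and 9.04 in KHR tumours, against 8.49, 8.63 and 8.77 in KR tumours, with 3 KHR arrays above the KR range and 3 inside it. The difference was 0.20 ± 0.11 (adjusted p = 0.420).

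**Figure D2:**
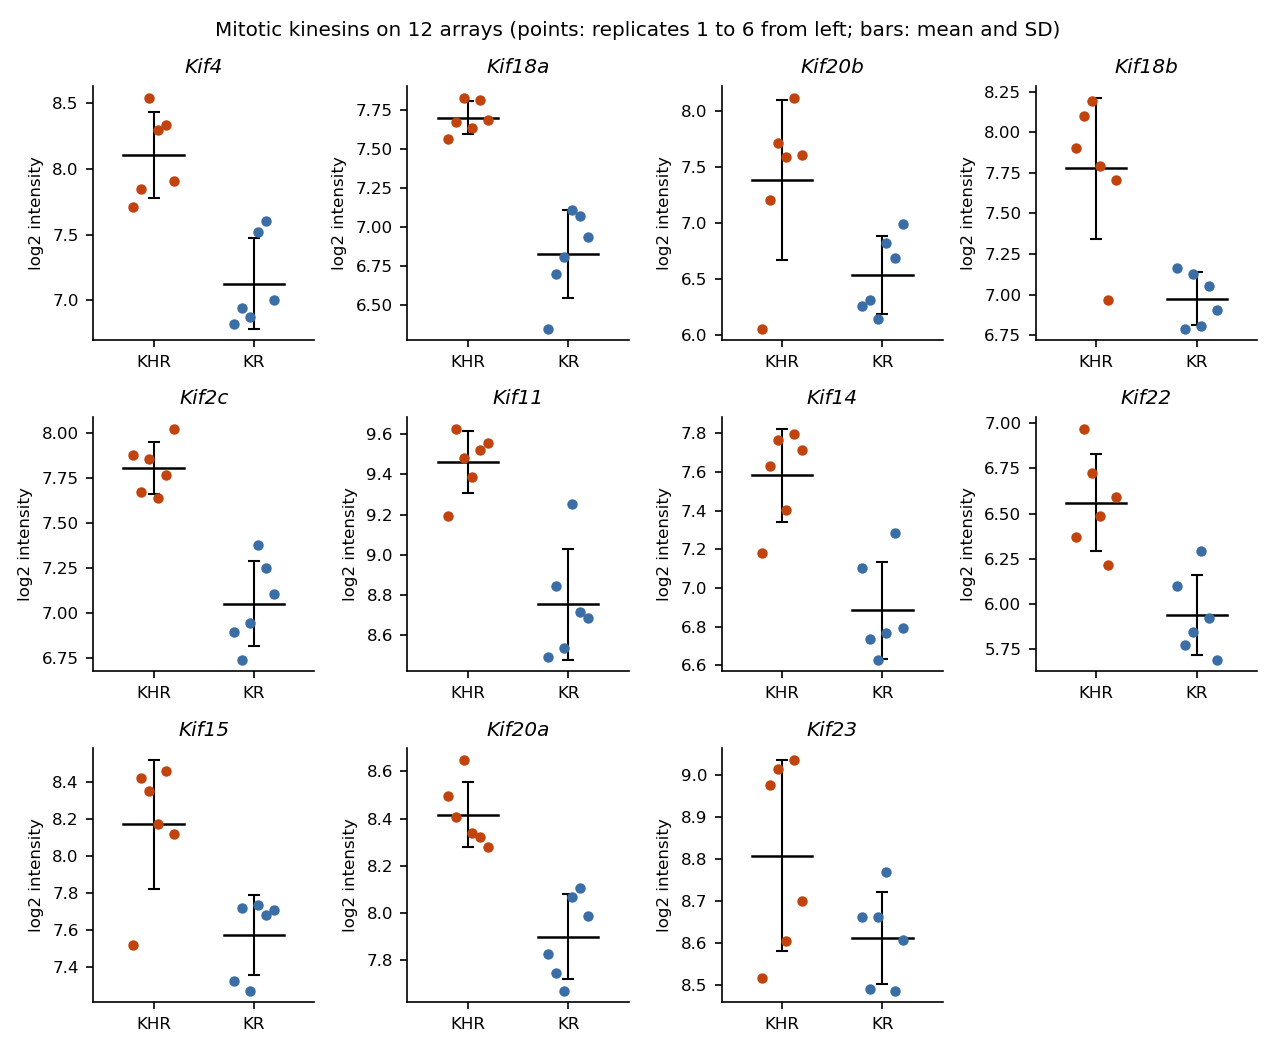
Log2 intensity of each of the 11 mitotic kinesins in 6 KHR tumours (left, orange) and 6 KR tumours (right, blue), with mean and SD and each panel on its own scale. Kif4, Kif18a, Kif2c and Kif20a show no overlap of the groups, and KHR 1, the first KHR point, lies lowest in 7 of the 11 panels.

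In all, 4 of the 11 mitotic kinesins had every KHR array above every KR array, against 1.83% of all genes. Of the KHR tumours, KHR 1 was the lowest for 7 of the 11, and KHR 3 and KHR 5 were each the highest for 4. Of the KR tumours, KR 4 was the highest for 6 and KR 5 for 3. The mean of the 11 on an array ranged from 7.67 to 8.19 in KHR tumours and from 7.14 to 7.50 in KR tumours, so that the lowest KHR tumour stood above the highest KR tumour. The mean of the 26 others ranged from 6.02 to 6.22 in KHR tumours and from 6.12 to 6.25 in KR tumours. KHR 1 was lowest among the KHR tumours for both means.

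**Figure D3:**
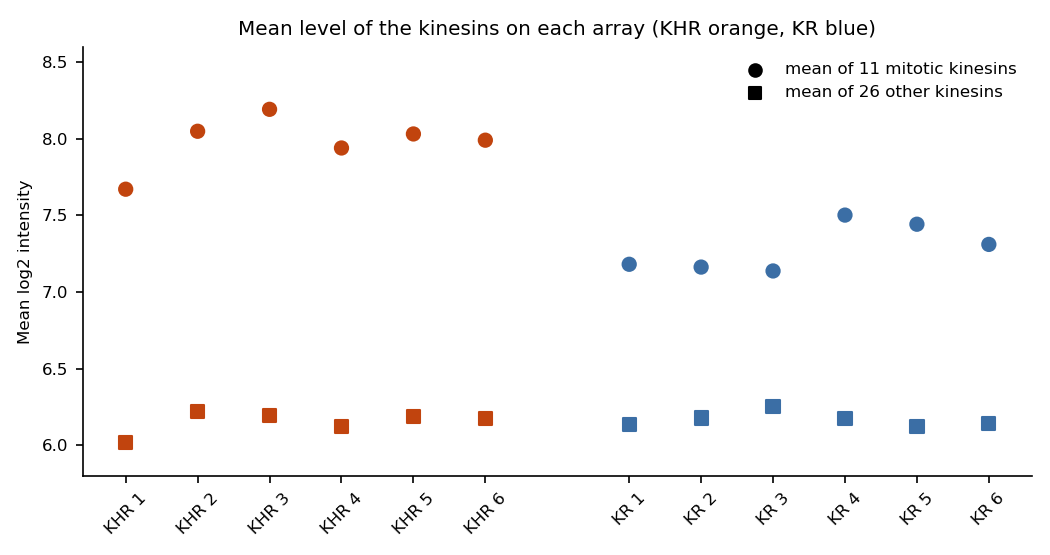
Mean log2 intensity of the 11 mitotic kinesins (circles) and of the 26 other kinesins (squares) on each array, KHR tumours on the left in orange and KR tumours on the right in blue. Circles lie between 7.67 and 8.19 in KHR tumours and between 7.14 and 7.50 in KR tumours, while the squares of both groups lie between 6.02 and 6.25; the height of circles against squares depends on the probes.

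The same 12 arrays were also divided by Xist level. On the arrays with high Xist, 4 KHR and 2 KR, all 11 mitotic kinesins were higher in KHR tumours, with a median difference of 0.58 and a range of 0.15 to 1.01. On those with low Xist, 2 KHR and 4 KR, all 11 were higher, with a median of 0.72 and a range of 0.17 to 0.97. The mean of the 11 already separated the groups on all 12 arrays, so these 2 sets give no independent support. With so few arrays these differences were not tested. With the Xist level as a covariate on all 12 arrays, 8 of the 11 passed in limma, Kif15 being the call lost (adjusted p = 0.116).

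The probesets of a mitotic kinesin mostly moved in 1 direction, though probesets of a gene share their arrays and are not replicates. Of their 244 probesets, 223 (91.4%) had a positive difference, against 278 of 577 (48.2%) for the other kinesins and 51.7% of all probesets. All 23 probesets of Kif11, all 17 of Kif18a and all 28 of Kif20b were positive. Tested singly, 27 of the 244 rose (11.1%) and none fell, where 0.721% of all probesets rose. Kif11 had 8 of these and Kif20a 5. Kif22 and Kif23 had none, and Kif23 had 19 of 27 positive. All 20 probesets of Kif1c and all 4 of Kif2b were negative. Some further other kinesins leaned to 1 side, with 3 of 23 positive for Kif9, 4 of 33 for Kif13a and 29 of 33 for Kif21a.

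**Figure D4:**
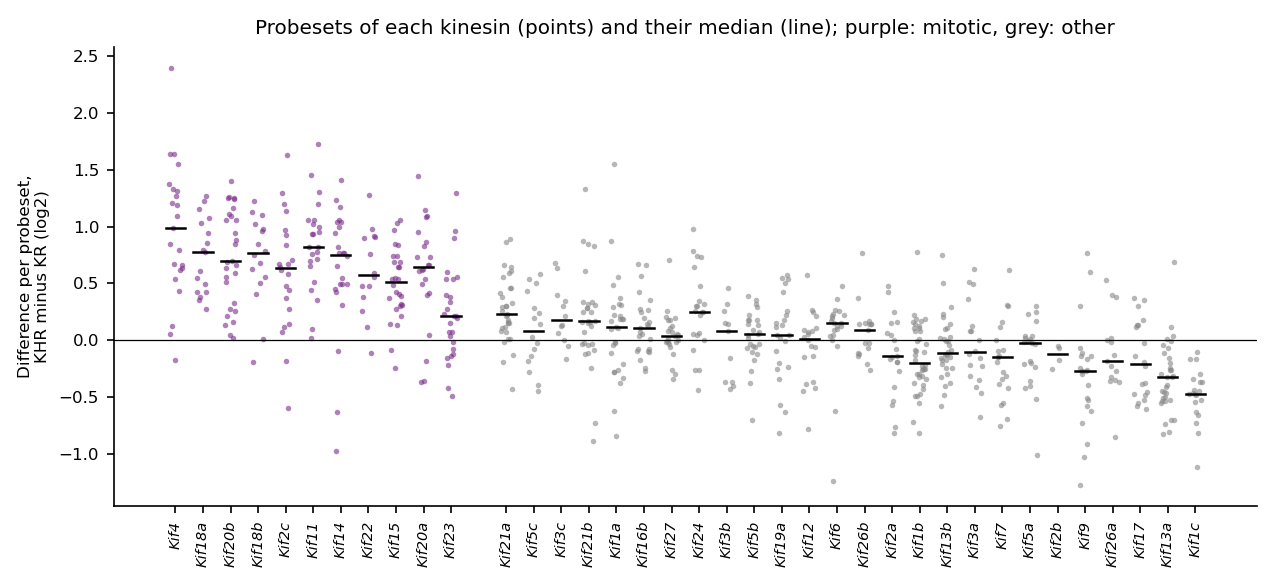
Difference per probeset, KHR minus KR on the log2 scale, for every kinesin; points are probesets and lines their median. Nearly all probesets of the mitotic kinesins (purple, 223 of 244) lie above 0, those of the others (grey) on both sides, and all 20 of Kif1c below 0.

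Among the other kinesins, Kif1c was the only call. Kif1c, of family 3, carries vesicles and integrins along microtubules to the cell edge. Its lowest, median and highest values were 9.52, 9.76 and 9.94 in KHR tumours, against 9.98, 10.18 and 10.42 in KR tumours. Every KHR array lay below every KR array, as for 0.84% of all genes. The difference was -0.44 ± 0.11, a fold of 0.738 (limma, adjusted p = 0.0439). The gene no longer passed when any 1 of 8 arrays was left out (KHR 2, 3 or 4, or KR 1, 2, 3, 4 or 6; adjusted p 0.0514 to 0.103), with array weights (0.0516) and with the Xist level or the mean of 9 skeletal muscle markers as a covariate (0.104 and 0.112). Its sign was the same each time, and its difference was -0.30 on the arrays with high Xist and -0.50 on those with low Xist.

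Family 3 and family 4 also held the nearest misses. Kif13a, of family 3, carries cargo from the Golgi and recycling endosomes to the cell surface. It stood at 7.15, 7.35 and 8.06 in KHR tumours, against 7.69, 7.83 and 8.003 in KR tumours, with 4 KHR arrays below the KR range and KHR 2 above it. The difference was -0.34 ± 0.14 (adjusted p = 0.230), and without KHR 2 it was -0.46 and passed (adjusted p = 0.0333). Kif21a, of family 4, restrains microtubule growth at the cell cortex. Its values were 8.44, 8.81 and 8.98 in KHR tumours, against 8.22, 8.39 and 8.71 in KR tumours, with 5 KHR arrays above the KR range and KHR 1 inside it. The difference was 0.36 ± 0.11 (adjusted p = 0.0997), and without KHR 1 it was 0.43 and passed (adjusted p = 0.0306).

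**Figure D5:**
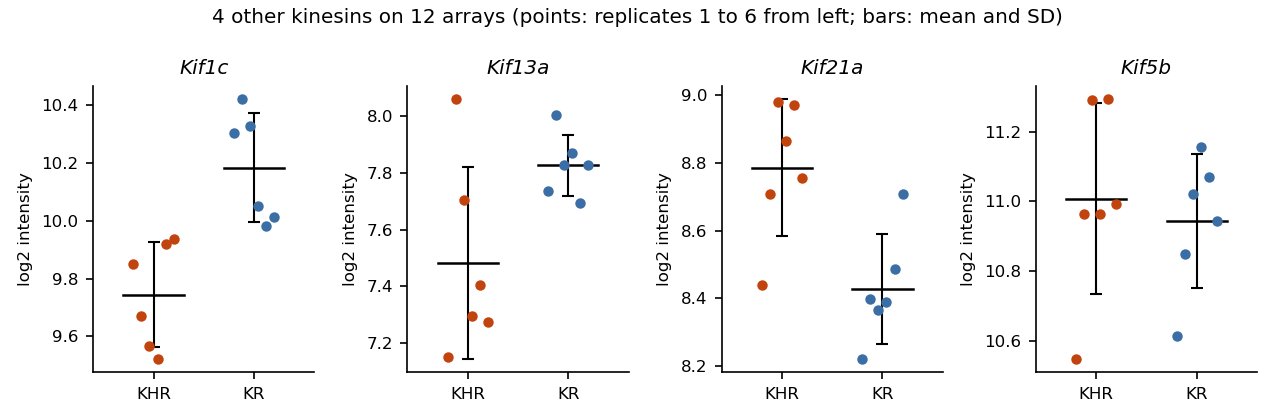
Log2 intensity of Kif1c, Kif13a, Kif21a and Kif5b in 6 KHR tumours (left, orange) and 6 KR tumours (right, blue), with mean and SD and each panel on its own scale. Only Kif1c shows no overlap between the groups; in Kif13a, KHR 2 (8.06) lies above every KR tumour while 4 other KHR tumours lie below them all.

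The cargo carriers Kif5b, Kif1b, Kif13b and Kif16b and the members of family 2 did not pass the test. Kif5b, the widely made heavy chain of conventional kinesin in family 1, averaged 11.01 ± 0.27 in KHR tumours and 10.94 ± 0.19 in KR tumours (SD, n = 6 each), a difference of 0.07 ± 0.13 (SE; adjusted p = 0.883). Kif1b, of family 3, which carries mitochondria and vesicles, averaged 9.21 ± 0.19 in KHR tumours and 9.31 ± 0.10 in KR tumours, a difference of -0.10 ± 0.10. Kif13b and Kif16b, the endosome motors of family 3, differed by -0.12 ± 0.11 and 0.17 ± 0.13. Of family 2, which drives transport into cilia, Kif3a and Kif3b differed by -0.13 ± 0.20 and 0.08 ± 0.14, Kif3c by 0.35 ± 0.20 and Kif17 by -0.21 ± 0.14. Their adjusted p-values were 0.427 to 0.883, which does not show that they were equal. Kif3c overlapped between the groups, with 4.63, 5.16 and 5.53 in KHR tumours and 4.40, 4.68 and 5.29 in KR tumours (lowest, median and highest).

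The kinesins of neurons and motile cilia did not pass the test, and most had dim probes, below the filter. The neuronal family 1 members Kif5a and Kif5c differed by -0.17 ± 0.10 and 0.36 ± 0.21, neither past the test. Kif5c had 4.10, 4.49 and 5.60 in KHR tumours, against 3.91, 4.34 and 4.44 in KR tumours, and its highest value, on KHR 2, lay far above the others. Kif5a had 3.65, 3.67 and 3.79 in KHR tumours, against 3.58, 3.83 and 4.15 in KR tumours, with every KHR array inside the KR range. Kif1a, the carrier of synaptic vesicle precursors, differed by 0.20 ± 0.12. Kif21b, of family 4, had 4.10, 4.45 and 4.52 in KHR tumours, against 3.92, 4.11 and 4.60 in KR tumours, a difference of 0.24 ± 0.12 (adjusted p = 0.353), and again every KHR array lay inside the KR range. Kif7 and Kif27, of family 4 and tied to Hedgehog signalling and motile cilia, differed by -0.15 ± 0.16 and 0.11 ± 0.10. Kif6 and Kif9, of family 9, and Kif19a, which limits the length of motile cilia, differed by between -0.19 and 0.05. Kif12, of family 12, had 3.61, 3.82 and 3.98 in KHR tumours, against 3.74, 3.84 and 3.94 in KR tumours, a difference of -0.02 ± 0.08. The mean of 7 markers of ciliated cells was 3.96 ± 0.03 in KHR tumours and 3.98 ± 0.09 in KR tumours (SD, n = 6 each), and all 7 were below the filter. Of the 26 other kinesins, 12 were below the filter, and the table has no detection calls to show which of them were above background. None of the 12 passed the test, and the adjusted p-values were 0.334 or more.

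The remaining members did not pass the test. The depolymerases Kif2a and Kif2b and their relative Kif24, which acts at centrioles, differed by -0.09 ± 0.12, -0.18 ± 0.09 and 0.10 ± 0.11, against the 0.75 of Kif2c in the same family. Kif2b, which rests on 4 probesets, had 3.46, 3.59 and 3.77 in KHR tumours and 3.60, 3.80 and 3.89 in KR tumours, and the groups overlapped. Kif26a and Kif26b, of family 11, differed by -0.20 ± 0.20 and -0.09 ± 0.16. Among the 14 other kinesins that passed the filter, 1 fell and none rose, beside 1.95% of the genes past the filter that fell and 5.13% that rose. All 11 mitotic kinesins passed the filter.

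Among the proteins that work with mitotic kinesins, further genes rose. Of 20 partners of the spindle and midzone, 9 rose and none fell, with a median difference of 0.42, where 2.71% of all genes rose and 5.13% of those past the filter on dim probes, as all 20 partners were. Aurkb, the kinase of the passenger complex that Kif20a carries, rose by 0.64 ± 0.10 (limma, adjusted p = 0.00225), Nusap1, a microtubule binder, by 0.95 ± 0.16 (0.00399) and Tpx2, a partner of Kif11 and Kif15, by 0.81 ± 0.13 (0.00400). Racgap1, the other part of centralspindlin, rose by 0.74 ± 0.16 (adjusted p = 0.0176), beside Kif23 at 0.20 ± 0.11; the difference between these 2 genes was not tested. Prc1, which places Kif4 on the midzone, differed by 0.71 ± 0.20 (adjusted p = 0.0794), and Cit, citron kinase, by 0.36 ± 0.16 (0.277). Racgap1, Prc1 and Cit are named for their link to the kinesins, after their values were seen.

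Of 5 kinesin-like genes that the symbol rule leaves out, 1 rose and none fell, where 2.71% of all genes rose and 1.03% fell. Cenpe, the kinesin that ties chromosomes to microtubules at the kinetochore, rose by 0.94 ± 0.16 (adjusted p = 0.00537), with values of 8.27 to 9.17 in KHR tumours and 7.44 to 8.36 in KR tumours. Kifc1, a minus-end motor of the spindle, differed by 0.24 ± 0.18, and Stard9 by 0.19 ± 0.14, neither past the test. Of the kinesin light chains and Kifap3, the cargo subunits, 0 of 5 passed; Klc3 came nearest, at -0.38 ± 0.11 (adjusted p = 0.0812), followed by Klc1 at 0.11 ± 0.09 and Kifap3 at 0.12 ± 0.19.

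Cargo adaptors and the opposing motor, dynein, gave few calls, where 2.71% of all genes rose and 1.03% fell. Of 13 measured cargo adaptors none rose and 1 fell, with a median of -0.03: Madd, which links family 3 kinesins to their vesicles, fell by 0.38 ± 0.09 (adjusted p = 0.0298). Grip1 and Trak1 differed by -0.43 ± 0.15 and -0.33 ± 0.14 without passing. Of 22 measured subunits and regulators of cytoplasmic dynein and dynactin 1 rose and none fell, with a median of 0.00101. That gene, Actr10, a dynactin subunit, rose by 0.33 ± 0.08 (adjusted p = 0.0467), and Nde1, a dynein regulator that also serves mitosis, differed by 0.44 ± 0.12 (0.0651), while Dynll1, a light chain, differed by -0.41 ± 0.20 (0.336).

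Most general markers of dividing cells rose. Of 6 measured, 5 rose and none fell, with a median of 0.74. Of all genes 2.71% rose, and 5.13% of those past the filter on dim probes, as all 6 were. Ccna2 differed by 0.51 ± 0.20 without passing (limma, adjusted p = 0.204). Pcna, the replication clamp, rose by 0.93 ± 0.10 (adjusted p = 0.000379), the cyclin Ccnb2 by 0.81 ± 0.11 (0.00125) and Cdk1, the mitotic kinase, by 0.75 ± 0.13 (0.00515). The mean of the 6 ranged from 10.23 to 10.56 in KHR tumours and from 9.40 to 9.81 in KR tumours, with KHR 1 the lowest KHR tumour here too. How far the kinesins moved beyond the share of dividing cells was not tested.

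Markers of other tissues gave 2 calls, where 3.74% of all genes were called in either direction. Of 9 skeletal muscle markers 8 were higher in KHR tumours, with a median difference of 0.77, as large as that of the mitotic kinesins, but none passed the test. Their mean was 7.18 ± 0.90 in KHR tumours and 6.59 ± 0.59 in KR tumours (SD, n = 6 each), and it ranged from 5.92 to 8.49 in KHR tumours and from 5.79 to 7.26 in KR tumours; with this mean as a covariate 7 of the 11 mitotic kinesins rose, without Kif15 and Kif22 (adjusted p = 0.114 and 0.0514). Of 7 neuron and Schwann cell markers 1 rose, Nefl by 1.28 ± 0.30 (adjusted p = 0.0294), while the list had 4 of 7 positive, a median of 0.06 and members such as Tubb3 at -0.22 ± 0.14. The mean of these markers ranged from 5.23 to 5.50 in KHR tumours and from 5.07 to 5.47 in KR tumours. Of 5 fibroblast markers 1 fell, Col1a2 by 0.80 ± 0.18 (adjusted p = 0.0220). The list was split, with 2 of 5 positive: Dcn and Pdgfra differed by 0.64 ± 0.45 and 0.58 ± 0.32, neither past the test. None of 4 endothelial or 5 leukocyte markers passed. The part of these tissues in the kinesin values was not tested beyond the muscle covariate.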

How the data were processed

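Affymetrix Mouse Gene 2.0 ST arrays measured the total RNA of 12 tumours. The authors deposited log2 values for 269751 probesets. The submitters' processing notes name Partek, with no steps; how background was corrected and arrays were normalized was not stated. The base of the logarithm was read from the range of the values. Array medians lay between 5.62 and 5.75, and no pair of arrays correlated above 0.97.

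Probesets with 1 symbol (233753; 5106 had several and 30892 none) were named through the platform annotation, with older symbols updated through RefSeq (GRCm38.p6). A gene's value was the median of its probesets, giving 23102 genes. Groups were compared with limma 3.58.1 (lmFit, eBayes) in R 4.3.3, two-sided, on all 12 arrays without covariates, with Benjamini-Hochberg adjustment over all genes. On simulated arrays of 23102 genes with this comparison, 90 of 100 genes changed by 1 on the log2 scale were called. Of 100 genes changed by 0.5, 41 were called, and there were 10 false calls. The simulated noise was normal and drawn independently for each gene, so these rates need not hold for the real arrays. Described with values were all mitotic kinesins, the other kinesins called and those next in p until 8 were named, the 3 of highest and of lowest mean intensity (an order of probe values, not of abundance), and the 3 genes of lowest p in each partner list; the remaining members are given by their differences. The alternatives tried were the mean or median polish over probesets, quantile or median scaling, filters on level and on probeset number, eBayes with trend and robust settings, array weights, the replicate block, the Xist level or the muscle mean as a covariate, a stricter threshold, and leaving out each array. Members, lists and tests were chosen with earlier results of these data known. Python 3.11.15 (pandas 2.3.3, numpy 2.4.6) made the tables and matplotlib 3.10.9 the figures.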

Additional observations from a re-analysis of the deposited data

Results flagged for a closer look

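In 6 of 74 groups of 6 arrays (37 kinesins in 2 groups), 1 array lay far from the rest by Dixon's test at the 95% level, which chance alone gives in about 1 of 20 groups. Among the mitotic kinesins this was Kif15 on KHR 1, at 7.52 with the other KHR arrays between 8.12 and 8.46. Among the others, Kif7 was high on KHR 6 (4.73; others 4.40 to 4.46), Kif13b low on KHR 3 (8.34; others 8.76 to 8.94) and Kif21b low on KHR 5 (4.10; others 4.40 to 4.52). On KR arrays, Kif1b was low on KR 1 (9.12; others 9.32 to 9.42) and Kif6 low on KR 5 (3.82; others 4.22 to 4.45).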

How the results depend on the processing

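The count of mitotic kinesins that rose, 9 of 11, was 7 to 10 under 11 other settings at the same threshold and 6 to 10 on leaving out each array, lowest without KR 2; none fell under any of them. At an adjusted p under 0.01 it was 4. Kif2c, Kif4, Kif11, Kif14 and Kif18a passed under all 23 of these settings (adjusted p up to 0.0407). Kif20b passed when probesets were averaged or combined by median polish (adjusted p = 0.0289 and 0.0218); with the mean over probesets the count stayed at 9 because Kif15 was lost. The count of other kinesins called, 1, was 2 with the mean over probesets (Kif24 higher, 0.26, adjusted p = 0.0491) and 0 with array weights, the replicate block, the Xist level or the muscle mean as a covariate, and an adjusted p under 0.01; on leaving out each array it was 0 to 2. Over all genes 863 were called, against 1445 with the mean over probesets, 555 with the Xist level and 559 with the muscle mean (added after seeing the data) as covariates, 523 to 1085 on leaving out each array, and 312 at an adjusted p under 0.01; without KHR 4 and KR 2 it was 523 and 531. Quantile normalization gave 547 higher and 304 lower genes, against 625 and 238. Nothing in the labels says that the same replicate numbers in both groups pair the tumours. The deviations of same-numbered arrays correlated between -0.00295 and 0.234, and 1 of 6 correlated best with its own number. Such correlations cannot show whether tumours were paired. With the replicate block 925 genes and 7 mitotic kinesins were called, without Kif20a and Kif22 (adjusted p = 0.0508 and 0.0567), and Kif1c was lost (0.0905). Differences near 0 changed sign for 7 other kinesins, none of them past the test: Kif1a (-0.00293 with median polish), Kif3b (-0.028 with the mean over probesets), Kif6 (0.062 with the mean, 0.037 with median polish), Kif12 (0.013 with median polish), Kif26b (0.068 with the mean, 0.11 with median polish, 0.071 with the muscle mean), Kif5b (-0.00944 with the Xist level, -0.064 with the muscle mean) and Kif19a (-0.028 with the muscle mean). On leaving out 1 array, differences spanned both signs for Kif5b (-3e-05 to 0.157), Kif6 (-0.137 to 0.015), Kif12 (-0.052 to 0.022), Kif19a (-0.027 to 0.091) and Kif26b (-0.183 to 0.024). With no detection calls, changes of dim kinesins are not exact. The causes of these changes were not tested.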
